A study of Bos taurus with 96 samples.

Results

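The genes described here are transcription factors outside the HOX clusters that mark position or mesodermal origin in the embryo: TBX15, TBX5, IRX3, IRX5, TCF21, SHOX2, GATA4, GATA6 and MEIS1. These 9 members were chosen by name, not by their values, and were matched to probes of the bovine array through the RefSeq accession of each probe or through the gene names that the study's probe tables give. Of the 9 members, 7 had a probe, out of 11896 named genes with a probe on the array, and they were measured by 14 probes. TBX15 and GATA6 matched no probe and were not analysed here. Total RNA was hybridised to a one-colour array with 4 arrays on a slide, 1 sample per array, and 96 arrays were used. Fat from the rump under the skin (SC), from within the muscle (IMF), between muscles (Inter), around the kidney (Kid) and from the omentum (Omen) had 12 arrays each, 4 from each of the breeds Angus, Hereford and Wagyu x Angus. The longissimus dorsi muscle (LD) had 36 arrays, of which 24 came from pasture animals and 12 from animals that had received supplement after weaning, and all fat came from pasture animals. The label of every sample gives 259 days, which the study's methods describe as days on grain before slaughter at 26 months of age, and the animals were steers. The methods place part of the LD samples at an earlier slaughter, which the labels do not mark, and IMF was dissected from the LD muscle, while LD was sampled with its fat in place.

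These proteins bind DNA and are switched on in particular regions or germ layers of the embryo, and many cell types of the adult keep the pattern of the place where they arose. TBX15 and TBX5 are T-box factors, TBX5 being known for the heart and the forelimb. IRX3 and IRX5 are Iroquois homeobox factors that are encoded side by side and are studied in adipocytes. TCF21 is a basic helix-loop-helix factor of visceral mesoderm and its fibroblasts, SHOX2 a homeobox factor of the proximal limb and the cardiac pacemaker, GATA4 and GATA6 are zinc finger factors of heart and endoderm, and MEIS1 is a homeobox partner of HOX proteins. Fat depots of different body regions are known to differ in such factors.

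Signal is given as log2 of the background-subtracted intensity minus the 75th percentile of its array, so that 0 is the level below which 75% of the probes lay, and a difference of 1 is a 2-fold difference. The level of one probe was not set against that of another. The scale was set on arrays of unequal brightness: the 75th percentile itself lay between 8.51 and 10.7 log2 units, with medians of 9.05 in SC, 9.14 in LD and 9.82 to 10.2 in the other depots. Between 80.9% and 99.6% of the tested probes were well above background, with medians of 91.1% in SC and 95.8% to 96.6% in the other fat depots, and the part of this gap in the differences from SC was not tested. Adipocyte markers were found in every depot, with a median summed linear signal of 1136 in SC, 466.45 in IMF and 26.8 in LD. The 12 markers of skeletal muscle fibres had a median summed signal of 2523 in IMF, 2.18 in SC and 5860 in LD, with no overlap between IMF and SC. All 6 smooth muscle markers were higher in IMF than in SC (median sum 464 against 19.4) and all 4 macrophage markers lower (4.13 against 18.1). The part of these shifts in the IMF minus SC differences was not tested. The arrays were scanned on 3 days, with all 12 IMF arrays on day 3, all 12 Inter arrays on day 2 and 11 of 12 SC arrays on day 1.

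Of the 96 arrays, 94 correlated best, over 30015 probes without the members, with the mean of the other arrays of their own tissue. The exceptions lie beside each other on slide 4. The array at position 2, labelled Kid Hereford, had r = 0.991 with the Inter mean and 0.982 with the Kid mean, and the array at position 3, labelled Inter Angus, had r = 0.9817 with the Kid mean and 0.9806 with the Inter mean. Both were kept under their labels. The Inter and Kid differences from SC described for a member, and the calls that changed, are also given without them.

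All 7 members differed between the 5 fat depots in a joint test with limma, where 87.2% of all probes tested were called. The adjusted p was 1.76e-23 for SHOX2, 1.69e-16 for IRX3, 8.75e-16 for TCF21, 1.08e-15 for IRX5, 2.09e-13 for MEIS1, 0.000492 for TBX5 and 0.00225 for GATA4. Because so many probes differed, the share of members called carries little, and the order and size of their levels are described below. By size the main patterns were these: SHOX2 was high in IMF and SC and low in Kid and Omen, TCF21 was high in Kid and Omen, IRX3 and IRX5 were highest in SC, and MEIS1 was highest in Omen.

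**Figure D1:**
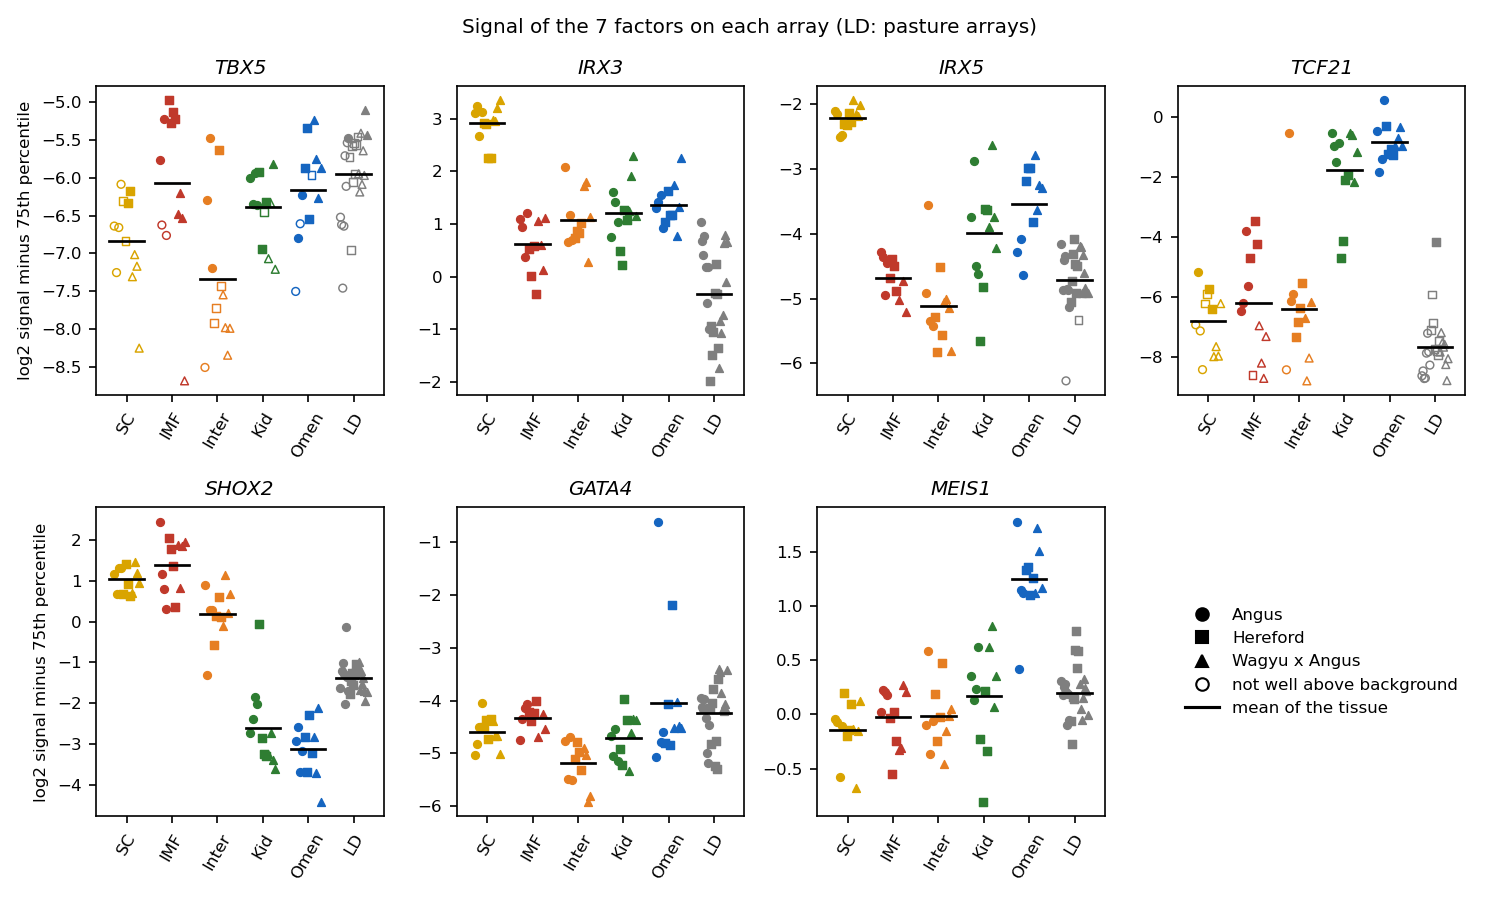
Normalised signal of the 7 members with a probe on each array, by tissue (y axis, log2 signal minus the 75th percentile of the array, each panel with its own scale). Symbols give the breed, open symbols are spots not well above background and lines are means over the arrays of a tissue; the SC arrays of IRX3 lie at 2.24 to 3.35 and the Omen arrays of TCF21 at -1.83 to 0.55.

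SHOX2, the limb and pacemaker homeobox factor, was high in the fat of the rump and of muscle and low in the fat of the body cavity. In SC the lowest, median and highest signals were 0.63, 1.04 and 1.45, and in IMF 0.31, 1.57 and 2.45. The Inter arrays had 0.19 ± 0.66 (SD, n = 12), with a range from -1.30 to 1.14. In Kid the values were -3.61, -2.80 and -0.06, and in Omen -4.44, -3.05 and -2.13. Every Omen and Kid array was therefore below every SC array. The LD pasture arrays stood between, at -2.03, -1.37 and -0.15.

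Relative to SC, SHOX2 was 17.9-fold lower in Omen (log2 difference -4.16 ± 0.20, SE, adjusted p = 2.5e-13) and 12.6-fold lower in Kid (-3.65 ± 0.28, adjusted p = 1.3e-09). The Inter difference was smaller, -0.84 ± 0.20 (adjusted p = 0.0015), and turned to 0.16 in the authors' log2 table, which has no scaling between arrays. It was -0.70 without both doubtful arrays (adjusted p = 0.0011). IMF minus SC was 0.37 with a 95% interval from -0.07 to 0.81 (adjusted p = 0.14), so no difference was detectable. The study names SHOX2 in a gene list that it drew from these same arrays, so its pattern is a description of them. In order, IMF and SC were highest, followed by Inter (1.20 below IMF, adjusted p = 0.00042), LD, and then Kid and Omen, whose difference of 0.51 did not pass the test (interval -0.16 to 1.18, adjusted p = 0.32). The drop from SC was present in every breed and within a scan day. The SHOX2 difference from SC lay between -3.28 and -4.32 within the 3 breeds in Kid and between -3.91 and -4.35 in Omen. On the first scan day alone, 5 Kid arrays had -3.25 to -2.03 and 11 SC arrays 0.63 to 1.45, and with scan day as a block the Omen minus SC difference was -4.19. The lone high Kid value of -0.06 belongs to the array labelled Kid Hereford on slide 4, and without both doubtful arrays Kid had -2.85 ± 0.58, with a highest value of -1.84, and was 14.8-fold below SC.

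TCF21, the factor of visceral mesoderm, was high in the body cavity and low elsewhere. In Omen the lowest, median and highest signals were -1.83, -0.97 and 0.55, and in Kid -4.72, -1.34 and -0.53, well above background on all 12 arrays of both depots. In SC they were -8.44, -6.69 and -5.18, with 3 of 12 arrays above background. In IMF the signals spread from -8.73 to -3.49, with 7 of 12 above background, and in Inter from -8.81 to -0.55, with 9 of 12. All Kid and Omen values lay above all SC values. In LD it was well above background on 1 of 24 pasture arrays and 0 of 12 supplement arrays.

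TCF21 was higher in Omen than in SC by 5.99 ± 0.34 on the log2 scale (adjusted p = 4.7e-12) and higher in Kid by 5.05 ± 0.48 (adjusted p = 2.6e-08). Since only 3 of 12 SC arrays measured it above background, these differences are not sizes against a measured SC level, and no fold is given. The size depends on how dim spots are treated: with a background correction that adds an offset the differences were 2.65 and 1.92, still past the threshold. The direction held, and the size did not. Without both doubtful arrays Kid minus SC was 5.32. Kid minus Omen was -0.93 (interval -1.80 to -0.07, adjusted p = 0.16). IMF minus SC was 0.62 (interval -0.58 to 1.83, adjusted p = 0.37) and Inter minus SC 0.42 (interval -0.93 to 1.76, adjusted p = 0.62), or -0.12 without both doubtful arrays, so SC, IMF and Inter could not be ordered. Within each breed all 4 Kid and all 4 Omen arrays lay above all 4 SC arrays, of which 2 in Hereford, 1 in Angus and 0 in Wagyu x Angus were above background. The highest Inter value, -0.55, is that of the Inter Angus array on slide 4. Leaving both doubtful arrays out, Inter had -6.95 ± 1.08, with no value above -5.54, Kid had -1.51 ± 1.07, with no value below -4.15, and the Inter minus Kid difference grew from -4.64 to -5.44. In bulk tissue fewer cells that express a gene and less RNA of it per cell cannot be told apart, here and in all results that follow.

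**Figure D2:**
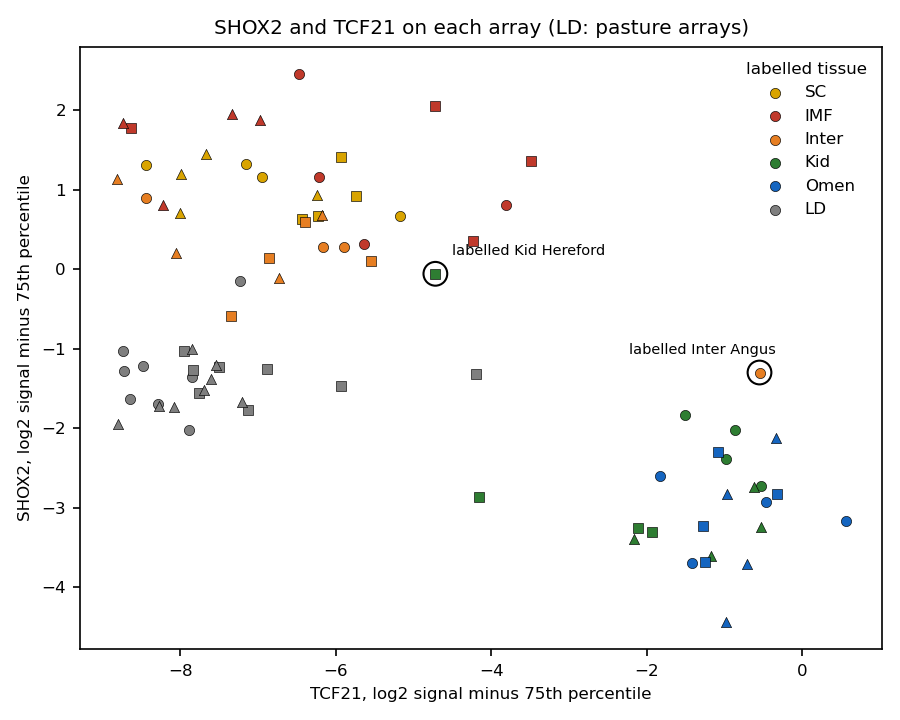
SHOX2 (y axis) against TCF21 (x axis), both as log2 signal minus the 75th percentile of the array, for the 60 fat arrays and the 24 LD pasture arrays. Colours are labelled tissues, symbols are breeds (circle Angus, square Hereford, triangle Wagyu x Angus) and rings mark the pair on slide 4; the array labelled Kid Hereford lies at TCF21 -4.72 and SHOX2 -0.06, the one labelled Inter Angus at -0.55 and -1.30.

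On both genes together, Omen and Kid occupied one corner, with high TCF21 and low SHOX2, and SC, IMF and Inter the other. LD had neither gene at a high level. Over the 18 means of 6 tissues and 3 breeds the correlation of SHOX2 with TCF21 was r = -0.755, which placed SHOX2 at rank 11126 of 11158 genes compared with TCF21, where rank 1 is the most alike. The points share slides and animals, and TCF21 was above background on 3 of 12 SC and 1 of 24 LD pasture arrays. The rank is therefore a description that rests partly on dim values.

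IRX3, one of the paired Iroquois genes, was at its highest in SC. The SC arrays had 2.24, 2.96 and 3.35 as lowest, median and highest. Inter had 0.28, 0.93 and 2.08, Kid 0.21, 1.20 and 2.29, and Omen 0.77, 1.31 and 2.25. IMF was lower, at -0.33, 0.60 and 1.21, and LD pasture lower again, at -1.98, -0.32 and 1.03. The SC arrays stood apart from IMF and Inter, while Kid and Omen reached just over the lowest SC array.

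Compared with SC, IRX3 was 4.93-fold lower in IMF (-2.30 ± 0.17, adjusted p = 3.9e-11), 3.55-fold lower in Inter (-1.83 ± 0.18, adjusted p = 4.7e-08), 3.26-fold lower in Kid (-1.70 ± 0.19, adjusted p = 1.9e-07) and 2.94-fold lower in Omen (-1.55 ± 0.15, adjusted p = 2.6e-08). No pair among Omen, Kid and Inter passed the test, with differences of 0.13 to 0.27 in size and adjusted p from 0.35 to 0.73. IMF was below Inter by 0.47 with an adjusted p of 0.046, a call that was lost without replicate 1, 3 or 4 (smallest difference -0.33), with scan day as a block (adjusted p = 0.094) and in 3 further settings. All fat depots were above LD, from 0.94 in IMF to 3.24 in SC. With scan day as a block the differences from SC were larger, -3.07 for IMF and -2.30 for Omen, and on the first scan day alone 5 Kid arrays had 0.21 to 1.91 against 2.24 to 3.35 in 11 SC arrays. Without both doubtful arrays Inter minus SC was -1.79 and Kid minus SC -1.64.

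IRX5, the neighbour of IRX3, was likewise highest in SC. The SC arrays were tight, at -2.50, -2.16 and -1.93. The IMF values were -5.20, -4.69 and -4.28 over 11 arrays, since 1 spot was marked as an outlier. In Inter they were -5.82, -5.22 and -3.56, in Kid -5.66, -3.82 and -2.62, and in Omen -4.64, -3.29 and -2.78, again over 11 arrays. No array of another fat depot reached the lowest SC array.

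IRX5 was 7.52-fold lower than SC in Inter (-2.91 ± 0.18), 5.53-fold lower in IMF (-2.47 ± 0.10), 3.44-fold lower in Kid (-1.78 ± 0.24) and 2.51-fold lower in Omen (-1.33 ± 0.17), with adjusted p of 2.1e-10, 1.2e-15, 2.3e-06 and 2.1e-06. Without both doubtful arrays the Inter difference was -3.05 and the Kid difference -1.63. The Omen call was lost in the authors' unscaled table, where the difference was -0.30. Another probe of IRX5 gave larger differences, up to 22.8-fold in IMF, with the same order of SC above all other depots. Kid minus Omen did not pass the test with the probe used (-0.46, interval -1.06 to 0.15, adjusted p = 0.32) and passed it with 1 of its 3 probes (-0.82, adjusted p = 0.010), and Omen and Kid lay above Inter by 1.58 and 1.13, the latter by 1.42 without both doubtful arrays. IMF minus Inter was 0.44 (adjusted p = 0.056), and 0.59 (adjusted p = 0.0016) without these arrays, but the other two probes gave 0.23 (adjusted p = 0.43) and -0.16 (adjusted p = 0.54), so IMF and Inter are not ordered. LD pasture had -4.72 ± 0.48 (n = 24). The place of IMF and Inter against LD hung on the probe. IMF minus LD was 0.04 (interval -0.27 to 0.35) with the probe used, but 1.25 (adjusted p = 0.014) and 1.70 (adjusted p = 5.1e-07) with the other two. Inter minus LD was -0.40 with the probe used and 1.03 with the brightest.

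**Figure D3:**
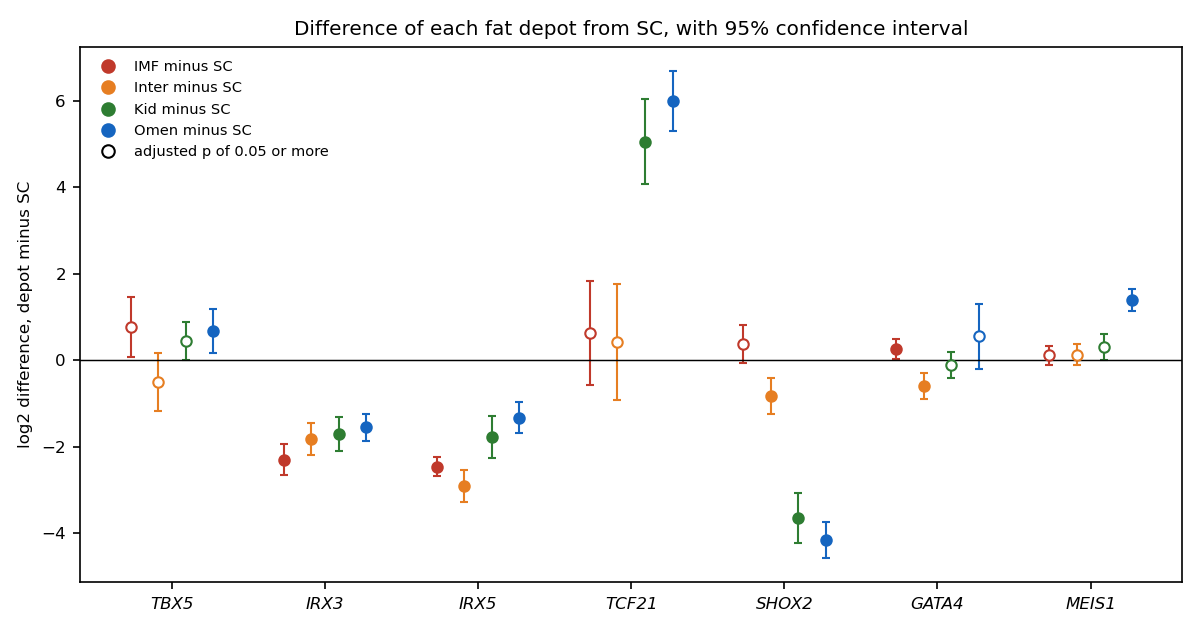
Log2 difference of IMF, Inter, Kid and Omen from SC for the 7 members (y axis), with 95% confidence intervals from limma on 12 arrays against 12. Filled points passed the adjusted threshold of 0.05. All 4 depots lay below SC for IRX3 and IRX5, from -1.33 to -2.91, whereas only Kid and Omen departed for TCF21 and SHOX2 by more than 3. TCF21 was above background on 3 of 12 SC arrays, and its size depends on how dim spots are treated.

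IRX3 and IRX5 follow each other in the RefSeq order of bovine genes (assembly ARS-UCD2.0), with 0 other protein-coding genes between them, and IRX6 comes next to IRX5. IRX6, also an Iroquois factor, had its highest mean in SC too, at -3.23 ± 0.26. It was lower than SC by 0.64 in IMF (over 11 arrays), 0.86 in Inter and 0.48 in Omen (over 11 arrays), with adjusted p of 2.9e-05, 6.8e-07 and 0.0089, and in Kid the difference was -0.29 (adjusted p = 0.17). The 3 neighbours thus all had their highest fat signal in SC, with smaller differences in IRX6. IRX4, of another Iroquois cluster, was at -6.72 in SC with 3 arrays above background and passed the test in no depot against SC.

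MEIS1, the HOX partner, was set apart in Omen. The Omen arrays had 0.42, 1.21 and 1.78 as lowest, median and highest. The other fat depots lay close together, with SC at -0.68, -0.12 and 0.20, IMF at -0.55, 0.02 and 0.27, Inter at -0.45, -0.05 and 0.58, and Kid at -0.81, 0.22 and 0.81. Only 1 Omen array, at 0.42, fell within the range of Kid or Inter.

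MEIS1 was 2.62-fold higher in Omen than in SC (1.39 ± 0.12, adjusted p = 7.3e-09), and Kid was below Omen by 1.08 ± 0.16 (adjusted p = 0.00018). With the probes used it was the 1 member called between the pair of visceral depots, whereas 3 members were called with scan day as a block. Its 4 probes all passed the test in the same direction for Omen minus SC, with differences from 1.39 to 1.71, and for Kid minus Omen. Within breeds Omen minus SC was 1.28 to 1.59, so Omen led in each. On the second scan day 2 Omen arrays had 0.42 and 1.78 against -0.34 to 0.35 in 6 Kid arrays, and with scan day as a block Kid minus Omen was -1.08. Without both doubtful arrays it was -1.05. Among the remaining depots no difference from SC passed the test with the probe used: IMF minus SC was 0.11 (interval -0.11 to 0.34), Inter minus SC 0.13 (interval -0.11 to 0.37) and Kid minus SC 0.31 (interval 0.00 to 0.61, adjusted p = 0.097). Leaving both doubtful arrays out, Inter minus SC was 0.075 and Kid minus SC 0.34 (adjusted p = 0.070). All 4 probes gave a positive Kid minus SC, from 0.31 to 0.95, and 3 of them passed the test. In Inter minus SC all 4 were positive too, from 0.13 to 0.52, and 2 passed. The probes of MEIS1 disagreed in IMF minus SC, from -0.32 to 0.56, so no direction is given there. MEIS2, its close relative, was also highest in Omen, at 0.17 ± 0.38, and was lower than SC in IMF (-1.35 ± 0.17), where MEIS1 did not pass the test.

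**Figure D4:**
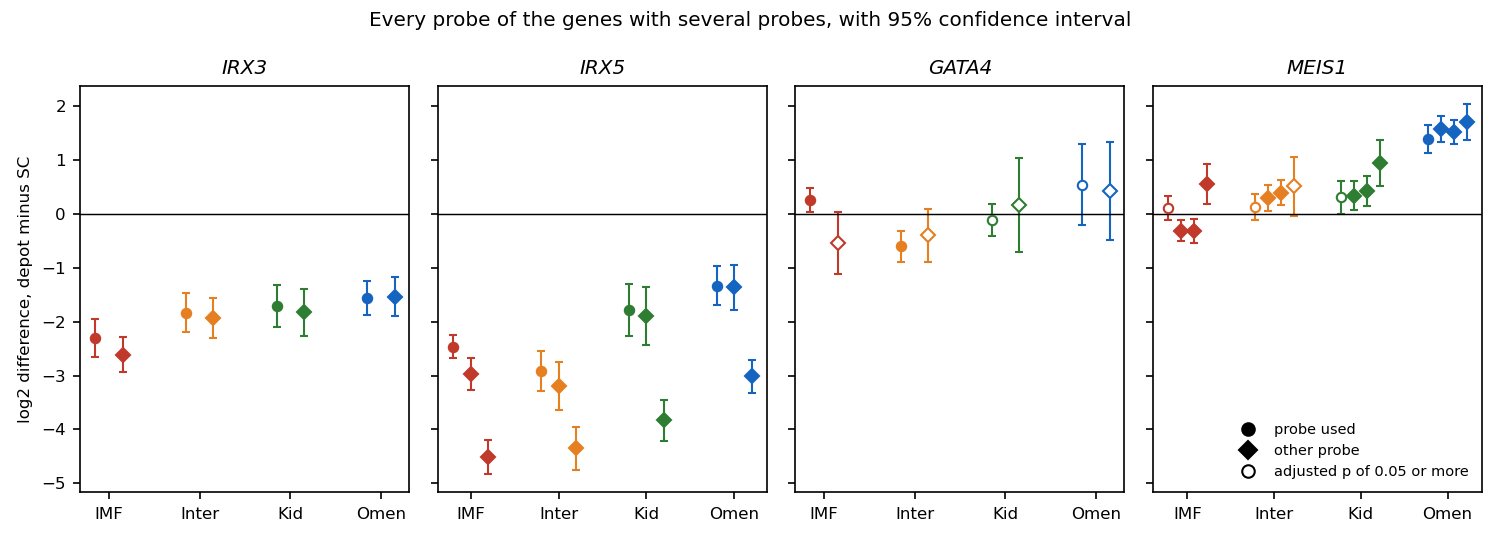
Log2 difference of each depot from SC (y axis) for every probe of IRX3, IRX5, GATA4 and MEIS1, with 95% confidence intervals. Circles are the probe used for the gene, diamonds are its other probes and open symbols did not pass the adjusted threshold of 0.05; the 4 MEIS1 probes lie between 1.39 and 1.71 in Omen, and the IRX5 probes in IMF between -2.47 and -4.51.

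GATA4, the heart and endoderm factor, was dim but well above background on all 96 arrays with the probe used. SC had -5.02, -4.58 and -4.05, IMF -4.75, -4.26 and -4.01 over 11 arrays, Inter -5.93, -5.07 and -4.69, and Kid -5.33, -4.64 and -3.97. In Omen 10 of 12 arrays had no more than -4.03, and the other two had -0.61 (Angus) and -2.19 (Hereford). The mean of Omen, -4.04 ± 1.31, rests on this pair, and Omen minus SC was 0.55 with an interval from -0.21 to 1.31 (adjusted p = 0.23).

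GATA4 in Inter was 1.51-fold below SC (-0.60 ± 0.14, adjusted p = 0.0012), although the difference was 0.58 in the authors' unscaled table, where the median probe was itself 0.98 higher in Inter. The difference was -0.57 without both doubtful arrays (adjusted p = 0.0024). IMF minus SC was 0.26 (adjusted p = 0.046) and is not firm: it turned to -0.24 with another background correction and when both probes were averaged, and it fell short in 9 more settings. The second GATA4 probe was above background on 30 of 96 arrays and passed the test in no depot against SC. The related GATA5 was higher in Omen than in SC by 4.46 ± 0.61 (adjusted p = 3.3e-06), with a range from -3.32 to 2.09 over the Omen arrays. The Omen array with GATA4 at -2.19 had GATA5 at 2.09, and the one with GATA4 at -0.61 had GATA5 at -2.59. One of the high GATA4 arrays was thus also high in GATA5 and the other was not. MSLN, a mesothelial marker, ranged from -6.09 to 0.72 over the Omen arrays and moved with GATA5: the 5 Omen arrays with GATA5 above 0, at 0.95 to 2.09, were the 5 with MSLN above 0, while the others had no more than -1.19 for GATA5 and -3.79 for MSLN. CALB2, another mesothelial marker, was above background on 0 of 12. Of 6 measured mesothelial markers 2 were higher and 3 lower in Omen than in SC, the summed signal was 6.70 to 25.1 in Omen and 11.8 to 21.8 in SC, and their part in the Omen values was not tested.

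TBX5, the forelimb and heart factor, was near background, with 39 of 96 arrays above it. It was above background on 9 of 12 IMF and 9 of 12 Omen arrays, 8 Kid, 4 Inter, 2 SC and 3 of 24 LD pasture arrays. The highest IMF value was -4.97 and the lowest -8.69, so values within a depot were widely spread. As most SC and Inter arrays were not above background, differences from them carry no firm size. Omen minus SC was 0.67 ± 0.24 (adjusted p = 0.027), but -0.027 with scan day as a block and -0.58 with the other background correction. IMF minus SC was 0.76 (adjusted p = 0.050, which did not pass the threshold), and IMF minus Inter 1.26 ± 0.40 (adjusted p = 0.0088), a call lost in 5 of 19 settings: in the authors' unscaled table (0.18, adjusted p = 0.59), with quantile normalization (0.68, adjusted p = 0.10), with scan day as a block (0.77, adjusted p = 0.088) and without replicate 1 or 2. That difference was 1.36 without both doubtful arrays.

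Counted over the members, 3 of 7 passed the test for IMF minus SC (IRX3, IRX5 and GATA4) against 64.2% of all probes, 4 for Inter minus SC against 48.8%, 4 for Kid minus SC against 41.7% and 6 for Omen minus SC against 45.7%. The members without overlap between 12 and 12 arrays were 4 in Omen (3.97% of all probes), 3 in Kid (3.52%), 2 in IMF (14.9%) and 2 in Inter (3.75%). The median difference from SC of the members was 0.55 in Omen, -0.12 in Kid, 0.26 in IMF and -0.60 in Inter, beside medians of all probes within 0.05 of 0. In Inter minus Kid 4 of 7 were called (15.4% of probes) and in Inter minus Omen 6 (13.6%), or 4 and 5 without both doubtful arrays (20.6% and 14.9%), where the call of GATA4 in Inter minus Omen was lost (-1.12, adjusted p = 0.056). In Kid minus Omen 1 was called (12.1%), in IMF minus Inter 4 (62.7%), or 5 without both doubtful arrays (62.3%), in IMF minus Kid 5 (55.8%) and in IMF minus Omen 5 (56.2%). Comparisons that share SC are not independent of each other.

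Muscle was the outgroup. Against the 24 LD pasture arrays 7 of 7 members were called in Inter (83.6% of probes), 6 in SC (82.9%), 6 in Kid (79.8%), 5 in Omen (81.9%) and 4 in IMF (75.3%). Without both doubtful arrays Inter had 6 (83.2%), with the call of TCF21 lost (adjusted p = 0.064), and Kid 6 (79.1%). The counts are of the probes used, and other probes disagreed. In Inter 2 of 4 MEIS1 probes and 2 of 3 IRX5 probes were called in the opposite direction. In Kid the MEIS1 probe used was not called, and 3 of 4 probes were called in the opposite direction. TCF21 was above background on 1 of the 24 LD arrays, so the size of its difference from LD is not given. All 12 Omen arrays (adjusted p = 1.3e-21) and 11 of 12 Kid arrays (adjusted p = 1.8e-16) lay above every LD array. SHOX2 was higher in IMF (2.79 ± 0.18), SC (2.43 ± 0.13) and Inter (1.59 ± 0.17) but lower in Kid (-1.23 ± 0.22) and Omen (-1.73 ± 0.17). The SHOX2 signal in IMF was thus 6.93-fold that of LD. The SHOX2 differences from LD were 1.73 in Inter and -1.46 in Kid without both doubtful arrays. The IMF arrays carried the myofibre signal given above, 1167 to 3521, and 1 Inter array reached 896, and what part muscle RNA had in the lower IRX3 and IRX5 of IMF was not tested.

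Breed was compared over the 60 fat arrays with depot in the fit. By the study's methods the depots of a breed come from the same small set of steers, which the labels do not identify. The fit took the arrays as independent, so its breed p-values do not measure the spread between steers. Of the 7 members 1, IRX3, differed between breeds (adjusted p = 0.031), where 3.2% of probes were called. IRX3 was higher in Wagyu x Angus than in Hereford by 0.52 ± 0.13 (adjusted p = 0.016, with 3.54% of probes called) and by 0.60 with its second probe (adjusted p = 0.019). Hereford minus Angus was -0.39 (adjusted p = 0.22, 0.567% of probes) and Wagyu x Angus minus Angus 0.13 (adjusted p = 0.76, 0.76% of probes), neither past the threshold. Hereford had the lowest mean in every fat depot, from 2.58 in SC, 1.25 in Omen and 0.86 in Inter to 0.76 in Kid and 0.20 in IMF, against 3.12, 1.52, 1.23, 1.65 and 0.72 in Wagyu x Angus. Hereford also had the lowest mean in LD, at -0.90 beside 0.22 in Angus and -0.30 in Wagyu x Angus, although breed did not pass the test there (adjusted p = 0.091). The LD arrays of the breeds were spread unequally over scan days. The labels do not mark which LD samples came from the earlier slaughter, so slaughter and scan day cannot be told apart in LD. On day 1 the means were -1.37 in Hereford and -1.09 in Wagyu x Angus, on day 2 -0.44 in Hereford and 0.72 in Angus, and on day 3 -0.28 in Angus and 0.49 in Wagyu x Angus, with 4 arrays each. Hereford was thus the lower on both days it was scanned. Angus and Wagyu x Angus shared day 3, where Wagyu x Angus had the higher mean, whereas Angus had the higher mean over all days. The breed call was lost without any one of replicates 1 to 4 and in the authors' unscaled table, and it held without both doubtful arrays (adjusted p = 0.037).

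**Figure D5:**
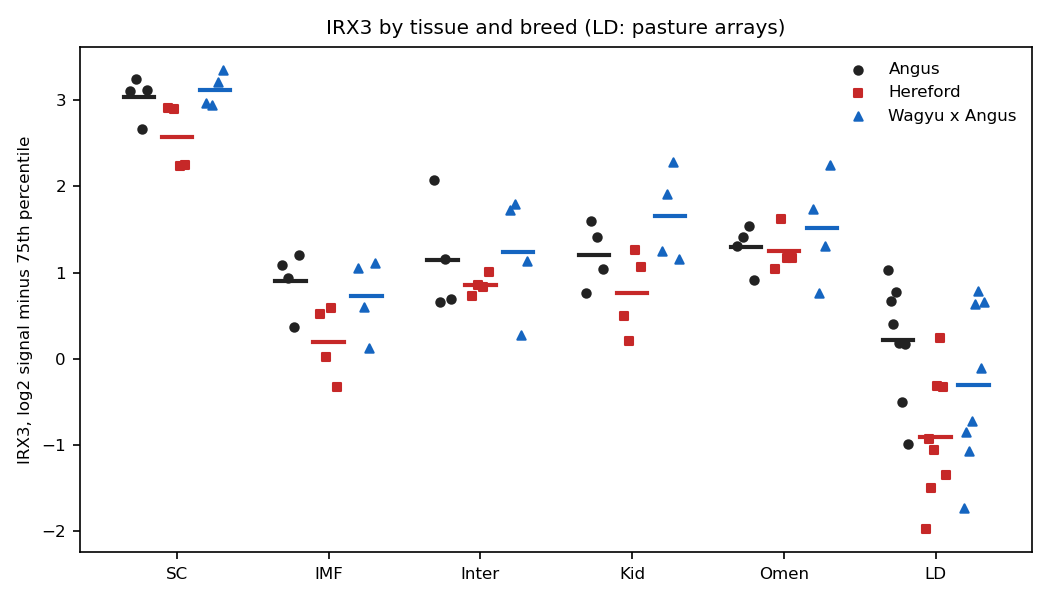
IRX3 by tissue and breed (y axis, log2 signal minus the 75th percentile of the array), with 4 arrays per breed in each fat depot and 8 in LD on pasture. Points are arrays and bars means; the Hereford mean is the lowest of the 3 in each tissue, from 2.58 in SC to -0.90 in LD.

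The differences between depots were not found to depend on breed for any member: 0 of 7 were called by limma (0% of probes, with 2526 probes at an unadjusted p under 0.05). In LD on pasture 0 of 7 differed between breeds (14.7% of probes, with 12126 at an unadjusted p under 0.05). Between feeding groups of LD, 1 of 7 was called (11.2% of probes), MEIS1, which was 0.41 ± 0.13 lower with supplement (adjusted p = 0.036), with values of -1.42 to 0.91 in 12 supplement arrays and -0.28 to 0.77 in 24 pasture arrays. The means with supplement and on pasture were -0.67 and 0.29 in Hereford, -0.14 and 0.15 in Wagyu x Angus, and 0.19 and 0.16 in Angus. All supplement arrays of a breed were scanned on 1 day. The pasture means of that day were -0.0095 in Hereford, 0.11 in Wagyu x Angus and 0.25 in Angus. Whether the feeding difference depended on breed was not tested. The MEIS1 call was lost in 9 settings, among them scan day as a block (adjusted p = 0.066).

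Other patterning factors were followed as a list of 62 genes, of which 45 had a probe. Against SC, 16 of 45 rose and 18 fell in IMF, where 31.2% of all probes rose and 33% fell. In Inter 12 rose and 17 fell (21.6% and 27.2% of probes), in Kid 9 and 18 (19.4% and 22.2%) and in Omen 13 and 14 (20.5% and 25.2%). EN1, a homeobox factor of the ventral limb and of the border of midbrain and hindbrain, was lower than SC everywhere, by 5.72 in Omen (over 11 arrays, with 6 arrays above background), 4.21 in Kid, 3.40 in IMF (over 11 arrays) and 2.82 in Inter, without overlap in any of them. BARX2, found in muscle, was above background on no SC array and was at least 6.86-fold higher in IMF. IMF minus LD was -1.77 for BARX2, beside the muscle fibre signal of IMF, whose part in it was not tested. SOX9, the cartilage factor, was above background on 2 of 12 SC arrays, and all 12 IMF arrays (adjusted p = 1.1e-07) and the 11 Omen arrays used (adjusted p = 2.1e-10) lay above every SC array. In Kid TCF15, a somite factor, was 2.16 higher than SC, DLX5 2.10 higher and EMX2, a urogenital factor, 2.93 lower. In Omen PRRX1, a limb mesenchyme factor, was 2.82 lower and EMX2 1.79 lower.

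The genes whose levels over the 18 tissue and breed means were most like each member, of 11158 compared, are given by Pearson's r as a description. IRX3 was nearest to CDK5RAP3 (0.962), PC (0.959) and INPP5K (0.953), and IRX5 to SEMA4A (0.951), WDR86 (0.916) and PNPLA7 (0.909). With r = 0.796 between them, IRX3 was at rank 71 for IRX5 and IRX5 at rank 914 for IRX3. TCF21 was nearest to VEGFC (0.934), ADH6 (0.928) and the HOX gene HOXA5 (0.897), and SHOX2 to ANGPTL5 (0.957), DKK2 (0.948), an inhibitor of Wnt signalling, and ADAMTSL4 (0.924). MEIS1 was nearest to SLC20A1 (0.881), RND1 (0.874) and ETV5 (0.863), with TCF21 at r = 0.723. For the dim genes the nearest were APOC3 (0.925), RXFP4 (0.918) and ODF3L1 (0.915) for TBX5, and ASPHD1 (0.883), C5 (0.882) and TFF3 (0.855) for GATA4. No member was among the nearest 3 genes of another.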

How the data were processed

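Total RNA of 96 samples was hybridised to the one-colour Agilent bovine array. The authors deposited an intensity per spot for each array, with the background already subtracted by Agilent Feature Extraction 10.7.3.1 and no scaling between arrays. With it they deposited flags for background and outliers, which are 0 or 1. Log2 values of 34227 probes were deposited as well, in a table that equals log2 of the median signal minus the median local background. The mixed model by which the study normalised its data was not rerun. Here the log2 intensity minus the 75th percentile of the array was used, without outlier spots and averaged over the spots of a probe. A probe was called well above background by the flag. No spot was saturated (0).

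Genes were named by accession through the RefSeq names (assembly ARS-UCD2.0, against Btau 3.1 in the array header, so positions are not given) for 19903 probes or through the study's tables for 4450 probes. Of 34227 tested probes 21447 were named, for 10655 genes. A gene was represented by the probe above background on the most arrays, ties by the highest mean. TCF21 has its only probe among the 9426 that the authors' values leave out, so its adjusted p is over all 43653 probes that are not controls. The methods name a t-test of equal variance, which was an alternative, and groups were compared with limma 3.58.1 in R 4.3.3 (lmFit and eBayes, two-sided, Benjamini-Hochberg over all probes tested, threshold 0.05), breeds combined, with the data.table package (version 1.17.8). Python 3.11.15, numpy 2.4.6, pandas 2.3.3 and matplotlib 3.10.9 served for tables and figures. The fits were tested on simulated data. Members, lists and tests were chosen with earlier results of these data known. Members were named whatever their values, and other factors where they passed the threshold without overlap and were among the 3 largest differences from SC in a direction. A factor that met this rule is not reported here.

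Arrays number 12 per depot, which limits the precision. Groups came from the labels. By the study's methods the depots share steers, which the labels do not identify, so the main fits left them unpaired. In all, 21 replicate labels were given to more than 1 array. No pair of arrays was identical, and pairs with one label correlated no better (median r 0.977) than others (0.979). P-values measure the spread between these arrays taken as independent, and those for breed in fat do not measure the spread between steers. Samples with one breed and replicate number did not deviate together (median r 0.01 over 117 pairs). Alternatives were quantile normalization, array mean centring, normexp with an offset of 50 (on the median signal, since the files used hold no mean signal), the authors' log2 table, all probes, a filter on dim probes (above background on 50% of the arrays of a group), breed as a covariate, scan day over 96 arrays, slide or replicate as a block, arrays of one label averaged, each replicate left out, other choices of probe or LD arrays and, chosen after the data were seen, leaving out the 2 arrays nearer to another depot.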

Additional observations from a re-analysis of the deposited data

Results flagged for a closer look

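Single arrays that stood apart from the others of their tissue and breed were looked for in 144 groups of 4 to 8 arrays, and 9 were found. This rule marks about 1 in 20 groups by chance, which is 7.2 of 144, so the number found is near that. SHOX2 on 1 Kid Hereford array was -0.057, beside -3.30 to -2.86 on the other arrays, and this is the array on slide 4 whose values over all probes were nearer to Inter. GATA4 on 1 Omen Angus array was -0.61, beside -5.06 to -4.59, and on 1 Omen Wagyu x Angus array -4.03, beside -4.52 to -4.48. TBX5 on 1 IMF Wagyu x Angus array was -8.69, beside -6.53 to -6.20, and on 1 LD Hereford pasture array -6.95, beside -6.05 to -5.45. IRX5 on 1 Inter Wagyu x Angus array was -5.81, beside -5.15 to -5.01, and on 1 LD Angus pasture array -6.27, beside -5.13 to -4.16. SHOX2 on 1 IMF Wagyu x Angus array was 0.81, beside 1.85 to 1.95. MEIS1 on 1 SC Angus array was -0.58, beside -0.11 to -0.04.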

How the results depend on the processing

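Of 71 called member differences, 40 kept their direction and call in all alternatives run for them, among 21 in all. These include IRX3 and IRX5 against SC in IMF, Inter and Kid, IRX3, TCF21, SHOX2 and MEIS1 in Omen minus SC, TCF21 and SHOX2 in Kid minus SC, and MEIS1 in Kid minus Omen. SHOX2, TCF21 and TBX5 have 1 probe each, so other choices of probe could not change them. The authors' table leaves out TCF21, and its value for that alternative was computed here in the same way as the table. The authors' log2 table shifted the median probe by 0.63 (IMF minus SC) to 0.98 (Inter minus SC), and normexp by -0.23 to -0.28 against SC.

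Differences that turned were, with the authors' table, SHOX2 (0.16) and GATA4 (0.58) in Inter minus SC, TBX5 in Inter minus Kid (0.69), MEIS1 in IMF minus LD (0.47), TBX5 (0.35), IRX5 (0.75), GATA4 (0.26) and MEIS1 (0.81) in Inter minus LD, and GATA4 in Kid minus LD (0.46). With normexp they were GATA4 in IMF minus SC (-0.24), TBX5 in Omen minus SC (-0.58), TCF21 in SC minus LD (-0.036), IMF minus LD (-0.31) and Inter minus LD (-0.51), and IRX5 in Kid minus LD (-0.29) and Omen minus LD (-0.025). With the mean of all probes they were GATA4 in IMF minus SC (-0.24) and IMF minus Kid (-0.27), and IRX5 (0.83) and MEIS1 (0.17) in Inter minus LD, and with the brightest probe IRX5 in Inter minus LD (1.03). With scan day as a block TBX5 in Omen minus SC was -0.027, and with the supplement LD arrays alone MEIS1 was 0.065, 0.18 and 0.19 in SC, IMF and Inter minus LD and TBX5 in Kid minus LD 0.20.

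The number of members called moved with the authors' table to 7 in IMF minus SC, 2 in Inter minus Kid, 7 in IMF minus LD and 0 for breed in fat. With quantile normalization it was 7 in IMF minus LD and 1 for breed in LD, and with a block for scan day it was 3 in each of IMF minus Kid, Kid minus Omen and SC minus LD and 0 for feeding. With slide as a random block it was 2 in Inter minus Kid, 2 in IMF minus LD, 4 in Inter minus LD and 0 for feeding, and with arrays of one label averaged 4 in Inter minus LD, 1 for breed in LD and 0 for feeding. For feeding it was also 0 with normexp, the mean of all probes and the methods' t-test, and with the supplement LD arrays alone 3 in Inter minus LD. The replicate numbers do not pair samples, and with a replicate block 2 members (TCF21 and IRX3) were called for breed in LD. Leaving out each replicate in turn gave 2 to 4 members in IMF minus Inter, 2 to 4 in IMF minus Kid, 2 to 3 in Inter minus Kid, 4 to 6 in Inter minus LD, 3 to 6 in Kid minus LD, 0 for breed in fat, 0 to 1 for depot by breed and 0 to 1 for feeding. The causes were not tested. Dim signals limit TBX5 and TCF21, for which most SC and LD arrays were not above background. No size is given for TCF21 against LD.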
